A study of Mus musculus with 16 samples.

Results

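The naive pluripotency genes are 9 genes chosen by name, Nr0b1, Dppa5a, Zfp42, Esrrb, Klf2, Klf4, Klf5, Tfcp2l1 and Tcl1. The choice was made with earlier results of these data known. Each was read from its single-symbol probe set of highest mean over the arrays, and all 9 are among the 18716 genes that could be named in the 32000 probe sets tested. RNA of 8 groups, each in 2 replicates by the labels, was hybridised to 16 arrays of the type Affymetrix Mouse Gene ST 1.0. All groups came from 1 mouse ESC line, given in the labels as E14.1 on a 129/Ola background (the study's methods name the line G4), that carries the alleles T GFP/+ and Foxa2 tagRFP/+ and so reports both genes by fluorescence. The same base medium held 12 ng/ml activin A for endoderm, and 3 ng/ml activin A with 7.5 ng/ml Bmp4 for mesoderm. Both were used on feeder cells that express Wnt3a. Foxa2+/T- cells with high CD24, a surface glycoprotein, were sorted from endoderm medium at day 4 and day 2 (F+CD24high D4 and F+CD24high D2), and those with low CD24 at the same days (F+CD24low D4 and F+CD24low D2). T+/Foxa2- cells without CD24 were sorted from mesoderm medium at day 4 (T+CD24neg D4), and those with low CD24 at day 4 and day 2 (T+CD24low D4 and T+CD24low D2). Undifferentiated mESCs (mESC, day 0) were kept on embryonic fibroblasts with 1000 U/ml LIF and, by the labels, were not sorted. Endoderm and mesoderm groups therefore differ in lineage and in medium, which cannot be told apart.

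Naive pluripotency is the state of the inner cell mass before implantation, which mouse ESCs hold in culture with LIF. LIF acts through its receptor and Stat3 on Klf4 and Tfcp2l1, and these factors, with Esrrb and the other Klf factors, keep Pou5f1, Sox2 and Nanog transcribed. When cells leave this state for the epiblast of the postimplantation embryo, from which the primitive streak forms its endoderm and mesoderm, the naive genes are switched off while Pou5f1 is kept for some time.

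Values are RMA log2 values of single arrays, on which a difference of 1 is a 2-fold change. A gene was called higher or lower where it differed by more than 1 on the log2 scale with an adjusted p (Benjamini-Hochberg, limma fit over all 32000 probe sets) below 0.05. Percentages of probe sets called follow this rule. Counts of genes with an unadjusted p below 0.05 are given without the share of all probe sets that reach it. Array medians lay between 7.42 and 7.49, replicates correlated at r between 0.989 and 0.995 over all probe sets, and each array was most like its own replicate. The 2 F+CD24high D2 replicates correlated least. Of the genes used for the sort, Foxa2 was higher in F+CD24high D4 than in T+CD24neg D4 cells (2.55, SE 0.21, adjusted p = 3.79e-06), and so was Cd24a (2.32, SE 0.12, adjusted p = 1.2e-07). Between the CD24high and CD24low gates of Foxa2+ cells Cd24a differed by 0.46 at day 4 (adjusted p = 0.0241) and 0.62 at day 2 (adjusted p = 0.0069), both under the fold threshold. These are bulk samples, in which fewer cells of a type and less RNA per cell cannot be told apart.

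Naive pluripotency genes were lower in every sorted group than in mESC. Both mESC arrays lay above all 14 sorted arrays for 9 of 9 genes, a pattern shown by 7.68% of the probe sets tested. All 9 were called lower in F+CD24high D4, where 5.19% of the probe sets were lower and 3.57% higher, and 8 of 9 in F+CD24high D2, where 4.4% were lower and 2.25% higher. The count was 8 of 9 in F+CD24low D4 (2.71% of probe sets lower, 1.8% higher) and 9 of 9 in F+CD24low D2 (2.47% lower, 1.18% higher). It was 9 of 9 in T+CD24neg D4 (3.43% lower, 2.23% higher), in T+CD24low D4 (3.2% lower, 2.26% higher) and in T+CD24low D2 (2.61% lower, 1.49% higher). No member was called higher in any of the 7 comparisons. Of the 63 differences, 61 were called. The members' median log2 fold change lay between -2.79 in T+CD24neg D4 and -2.43 in F+CD24high D2, while the median over all probe sets lay between 0.04 and 0.07. The 7 comparisons share the same 2 mESC arrays and are not independent of each other.

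**Figure D1:**
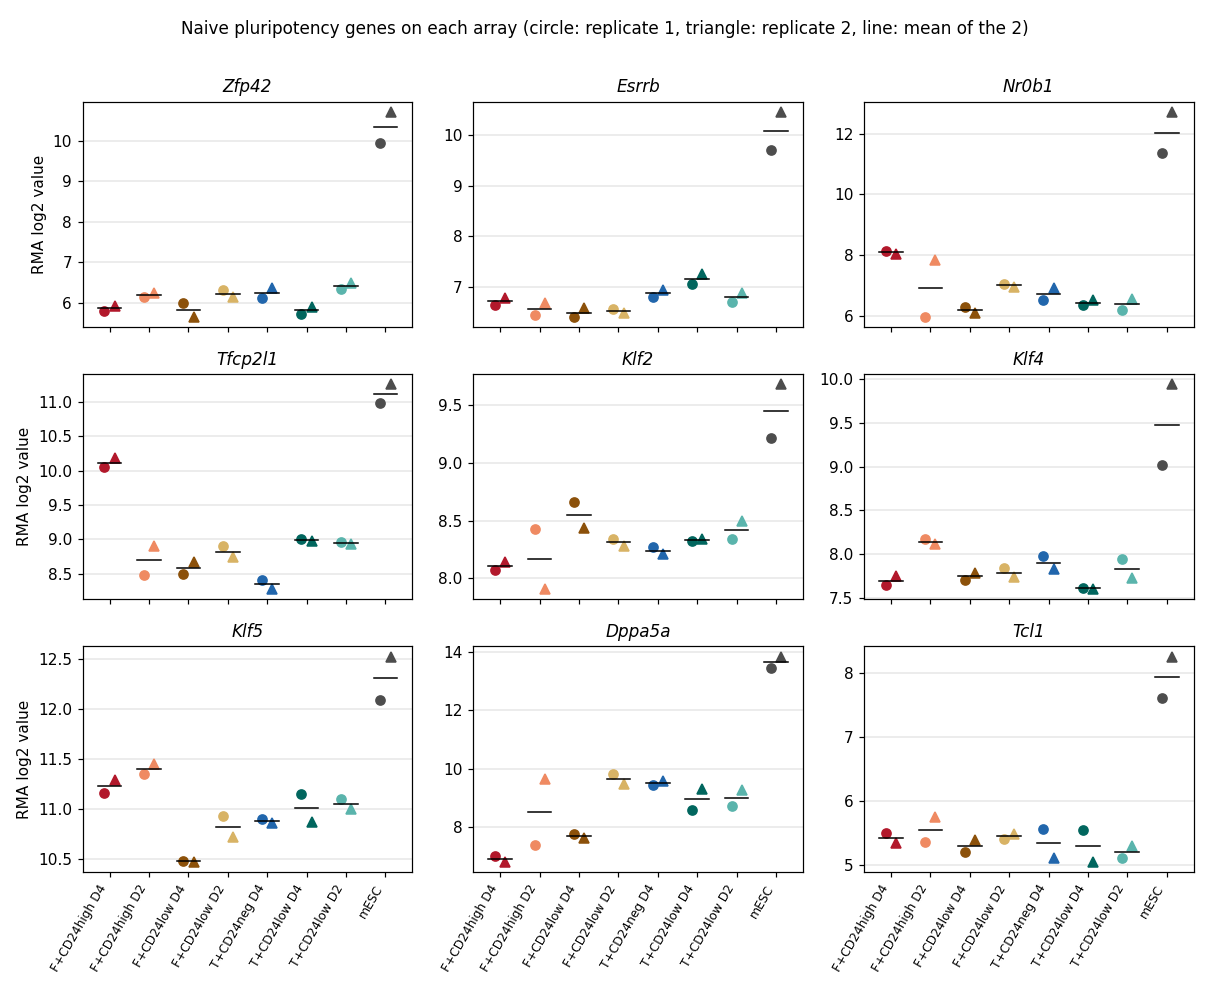
RMA log2 value (y axes, a scale of its own for each gene) of the 9 naive pluripotency genes in the 8 groups (x axes); circles are replicate 1, triangles replicate 2 and lines the mean of both. Both mESC arrays lie above all 14 sorted arrays in each panel, and Tfcp2l1 stands between mESC and the other sorted groups in F+CD24high D4.

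Of the transcription factors, Zfp42 (Rex1), a zinc finger protein used as a reporter of the naive state, was at least 15.3-fold lower in each of the 7 groups. It spanned 5.65 to 6.47 over the 14 sorted arrays (median 6.13), against 9.95 and 10.72 on the mESC arrays. The sorted arrays thus lay within 1 log2 unit of each other and far below both mESC arrays. The log2 fold change ran from -4.53 in T+CD24low D4 to -3.93 in T+CD24low D2 (SE 0.21, adjusted p between 3.38e-08 and 2.95e-07 over the 7 groups), and at most 23.1-fold lower. RefSeq also lists a pseudogene of Zfp42, whose share of this signal is uncertain.

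Esrrb, an orphan nuclear receptor that binds many naive enhancers, spanned 6.40 to 7.24 on the sorted arrays (median 6.68), against 9.70 and 10.46 in mESC. Its log2 fold change lay between -3.60 in F+CD24low D4 and -2.94 in T+CD24low D4 (SE 0.20, adjusted p between 1.86e-07 and 1.18e-06). Nr0b1 (Dax1), an X-linked nuclear receptor without a DNA-binding domain that binds Oct4 in ESCs, read 8.13 and 8.04 in F+CD24high D4, 5.96 and 7.84 in F+CD24high D2, 6.28 and 6.08 in F+CD24low D4 and 7.06 and 6.93 in F+CD24low D2. It read 6.51 and 6.92 in T+CD24neg D4, 6.35 and 6.51 in T+CD24low D4 and 6.20 and 6.55 in T+CD24low D2, against 11.36 and 12.73 in mESC. Its mESC replicates were thus 1.37 apart and its F+CD24high D2 replicates 1.87 apart. The log2 fold change ran from -5.87 in F+CD24low D4 to -3.96 in F+CD24high D4 (SE 0.51, adjusted p between 1.19e-05 and 0.000103).

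The Klf factors are zinc finger proteins that bind GC-rich promoters and stand in for one another in ESCs. Their changes were smaller than those of Zfp42 and Esrrb. Klf2 spanned 7.91 to 8.66 on the sorted arrays (median 8.33), against 9.22 and 9.68 in mESC. Klf4, a LIF and Stat3 target and reprogramming factor that fibroblasts express as well, spanned 7.60 to 8.17 (median 7.77), against 9.01 and 9.94 in mESC. Klf5, also a factor of the trophectoderm and of gut epithelium, spanned 10.47 to 11.45 (median 10.96), against 12.10 and 12.53 in mESC. For each of the 3, the lowest mESC array exceeded the highest sorted array by less than 1 (0.55, 0.84 and 0.64). The log2 fold changes were -1.34 to -0.90 for Klf2 (SE 0.17), -1.86 to -1.33 for Klf4 (SE 0.22) and -1.83 to -0.91 for Klf5 (SE 0.14). The 2 member values that were not called are among them, Klf2 in F+CD24low D4 (-0.90, adjusted p = 0.00359) and Klf5 in F+CD24high D2 (-0.91, adjusted p = 0.000596), each for its size. Without mESC replicate 2, Klf2 was no longer called in F+CD24low D2 (-0.90), T+CD24low D2 (-0.80), T+CD24low D4 (-0.88) and T+CD24neg D4 (-0.98), Klf4 in F+CD24high D2 (-0.87) and Klf5 in F+CD24high D4 (-0.87). Without mESC replicate 1, Klf2 in F+CD24low D4 (-1.13) and Klf5 in F+CD24high D2 (-1.13) were called. Klf2 was also called in F+CD24low D4 without F+CD24low D4 replicate 1 (-1.01), and lost in T+CD24low D2 without T+CD24low D2 replicate 1 (-0.95).

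Tfcp2l1, a grainyhead-like factor downstream of LIF and Stat3, was reduced in 6 groups and far less so in F+CD24high D4. It read 10.06 and 10.18 in F+CD24high D4, 8.48 and 8.91 in F+CD24high D2, 8.49 and 8.67 in F+CD24low D4 and 8.90 and 8.74 in F+CD24low D2. It read 8.41 and 8.27 in T+CD24neg D4, 9.01 and 8.98 in T+CD24low D4 and 8.97 and 8.93 in T+CD24low D2, against 10.99 and 11.26 in mESC. Both F+CD24high D4 arrays lay above all 12 other sorted arrays and below both mESC arrays, an order whose share over all probe sets is not given here. The log2 fold change against mESC was -1.01 in F+CD24high D4 (SE 0.14, adjusted p = 0.000204) and between -2.79 and -2.13 in the other 6 groups. The call in F+CD24high D4 was lost without mESC replicate 2 (-0.87) and without F+CD24high D4 replicate 1 (-0.94).

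Dppa5a (Esg1), an RNA-binding KH-domain protein of ESCs and germ cells, read 7.0 and 6.82 in F+CD24high D4, 7.38 and 9.63 in F+CD24high D2, 7.75 and 7.63 in F+CD24low D4 and 9.83 and 9.46 in F+CD24low D2. It read 9.45 and 9.56 in T+CD24neg D4, 8.60 and 9.30 in T+CD24low D4 and 8.74 and 9.29 in T+CD24low D2, against 13.46 and 13.83 in mESC. Its F+CD24high D2 replicates lay 2.25 apart, the widest replicate gap of any member. The log2 fold change ran from -6.73 in F+CD24high D4 (106-fold lower) to -4.00 in F+CD24low D2 (16-fold lower), with an SE of 0.53 and adjusted p between 1.94e-06 and 0.000324. RefSeq lists the pseudogenes Dppa5b and Dppa5c, so these values may hold signal from more than 1 gene. Tcl1, a cofactor of the kinase Akt that supports ESC proliferation and has near relatives in the Tcl1b genes, spanned 5.06 to 5.75 on the sorted arrays (median 5.38), against 7.61 and 8.26 in mESC. Its log2 fold change was nearly the same in all groups, between -2.72 in T+CD24low D2 and -2.38 in F+CD24high D2 (SE 0.23, adjusted p between 7.73e-06 and 2.58e-05). All its sorted values lay below the array medians, where RMA compresses differences, so equal falls in RNA are not shown.

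**Figure D2:**
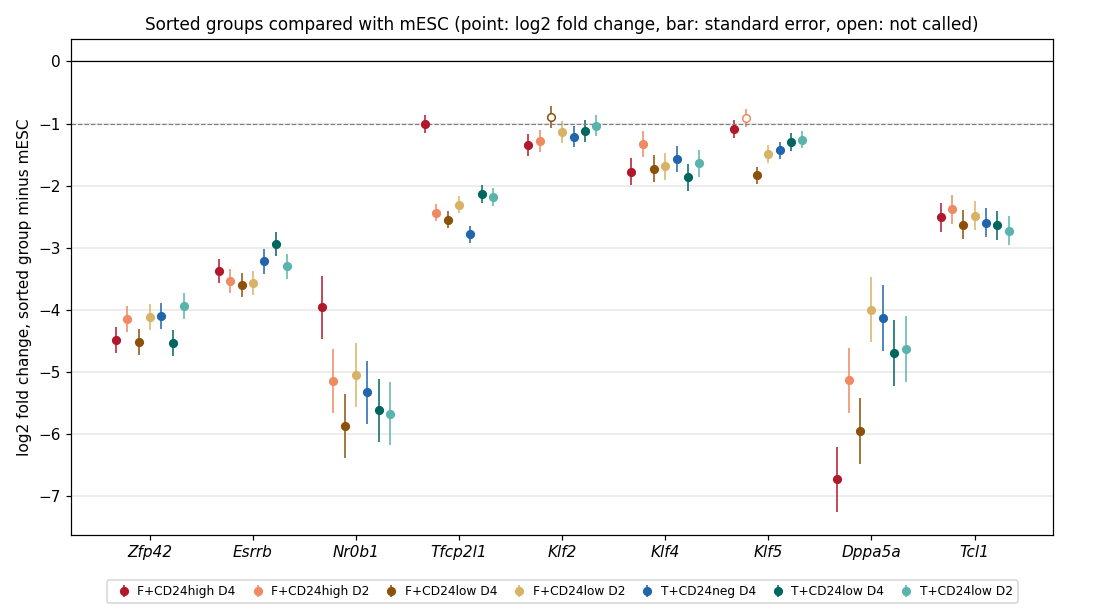
Log2 fold change of each of the 7 sorted groups compared with mESC (y axis) for the 9 genes (x axis); points are limma estimates, bars standard errors, open points were not called and the dashed line marks -1. Fold changes lie between -6.73 and -0.90, and the only open points are Klf2 in F+CD24low D4 and Klf5 in F+CD24high D2.

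Most of the log2 fold change against mESC was present by day 2. Both days are compared with the same mESC arrays. The day 2 means of Zfp42, Tcl1, Esrrb and Nr0b1 already lay below the array medians, where RMA compresses any further fall. At day 2 the log2 fold change against mESC was 67.2% (Dppa5a) to 126.5% (Klf2) of that at day 4 in F+CD24low cells, and 86.8% (Zfp42) to 112.1% (Esrrb) in T+CD24low cells. In F+CD24high cells it was 74.9% (Klf4) to 104.6% (Esrrb) for 7 genes, 129.9% for Nr0b1 and 241.8% for Tfcp2l1, whose levels were nearer to mESC at day 4 than at day 2. Ordered by their means, all 9 genes had mESC at the top, and the step from mESC to the next group passed an adjusted p below 0.05 for each of them. Of the 54 steps between neighbouring sorted groups 1 passed, that of Tfcp2l1 from F+CD24high D4 (10.12) to T+CD24low D4 (8.99, adjusted p = 0.000124). The other steps did not pass, which does not show that the neighbours were alike. Nr0b1 in F+CD24high D4 lay 1.09 above its neighbour F+CD24low D2 (limma, adjusted p = 0.185).

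The promoters shown are those of Zfp42 and Tfcp2l1, the 2 members whose windows held a match to a motif searched. Each is given as the 250 bases before a start of transcription in RefSeq (GRCm38.p6). For Tfcp2l1 the first base of the gene in RefSeq, 118627923, lies inside the window. Capitals mark matches to a Klf motif (GGGNGTGG) or to the octamer of Pou5f1 (ATGCAAAT) on either strand. The Zfp42 window is chr8:43307010-43307259 on the minus strand and that of Tfcp2l1 chr1:118627695-118627944 on the plus strand, each given 5′ to 3′ along the gene.
Zfp42: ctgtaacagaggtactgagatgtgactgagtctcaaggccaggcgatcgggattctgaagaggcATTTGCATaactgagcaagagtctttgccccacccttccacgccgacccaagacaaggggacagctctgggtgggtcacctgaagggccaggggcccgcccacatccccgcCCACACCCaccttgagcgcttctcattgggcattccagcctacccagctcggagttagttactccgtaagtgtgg
Tfcp2l1: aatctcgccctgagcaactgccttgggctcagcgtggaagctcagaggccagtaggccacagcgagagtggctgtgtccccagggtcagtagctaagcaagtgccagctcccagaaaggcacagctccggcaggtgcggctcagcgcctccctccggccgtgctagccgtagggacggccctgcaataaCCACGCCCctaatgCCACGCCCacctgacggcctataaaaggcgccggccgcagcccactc
Zfp42 held the octamer at base 65 and a Klf match at base 176 of the window, and Tfcp2l1 held a Klf match at bases 190 and 204, all in the reverse orientation. Of 32851 such mouse windows, 15.9% held the Klf motif and 1.6% the octamer. RefSeq windows were matched for 7 of the 9 members (8 windows, as Esrrb has 2), not for Dppa5a and Klf5, and the Klf motif was in 2 of the 8 and the octamer in 1. Matches to Esrrb (TNAAGGTCA, 1.14% of all windows), Tfcp2l1 (a pair of CCAG runs at a fixed spacing, 2.78%), Stat (TTCCNGGAA, 0.913%) and Foxa (TGTTTAC, 3.17%) motifs were in 0 of the 8. A match is a run of letters in these windows and was not tested as a binding site.

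F+CD24high D4 cells are the definitive endoderm of this series and were compared with the F+CD24low cells of the same day, the endoderm progenitors. Tfcp2l1 and Nr0b1 were higher in F+CD24high D4 than in F+CD24low D4, and the other 7 members were not called. In this comparison 2.11% of the probe sets were higher and 2.69% lower. Tfcp2l1, at 10.06 and 10.18 against 8.49 and 8.67, was higher by 1.54 (SE 0.14, adjusted p = 1.49e-05). Nr0b1, at 8.13 and 8.04 against 6.28 and 6.08, was higher by 1.91 (SE 0.51, adjusted p = 0.0232). The groups did not overlap for either gene, as for 29.5% of all probe sets in this direction and 28.4% in the other. The call of Nr0b1 was lost when any 1 of these 4 arrays was left out (adjusted p between 0.0794 and 0.118, with differences of 1.81 to 2.01), while that of Tfcp2l1 was kept without any 1 of the 16 arrays. Klf5, at 11.16 and 11.29 against 10.48 and 10.47, differed by 0.75 (SE 0.14, adjusted p = 0.00297) and fell short of the fold threshold alone. Dppa5a differed by -0.78 (95% interval -1.93 to 0.38, adjusted p = 0.414). Zfp42 (0.03, 95% interval -0.42 to 0.49), Tcl1 (0.12, interval -0.39 to 0.63) and Klf4 (-0.05, interval -0.52 to 0.42) had intervals that exclude a difference of 1 in array values. Zfp42 (means 5.85 and 5.82) and Tcl1 (5.42 and 5.30) lay below the array medians in both groups, where RMA compresses differences. For these 2 genes a 2-fold difference in RNA is therefore not excluded. The members' median was 0.12, and that of all probe sets 0.01.

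At day 2 none of the 9 was called between F+CD24high and F+CD24low cells (limma, 2.8% of the probe sets called in either direction), and 1 had an unadjusted p below 0.05. That gene was Klf5, at 11.35 and 11.45 in F+CD24high D2 against 10.93 and 10.72 in F+CD24low D2 (0.58, SE 0.14, adjusted p = 0.0237), under the fold threshold. Tfcp2l1 differed by -0.13 (95% interval -0.44 to 0.18) and Nr0b1 by -0.09 (95% interval -1.21 to 1.02). The change of the CD24 difference with the day was tested as an interaction, in which 0.35% of the probe sets were called higher and 0.381% lower at day 4. It was called for Tfcp2l1 alone of the 9 (1.67, SE 0.20, adjusted p = 0.0026). For Nr0b1 it was 2.00 (SE 0.72, adjusted p = 0.298), and 2.94 (adjusted p = 0.0203) without F+CD24high D2 replicate 2, the array that read 7.84.

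Within the F+CD24high gate Tfcp2l1 was the 1 member of 9 that changed between the days (0.884% of the probe sets higher and 0.5% lower at day 4). It was higher at day 4 than at day 2 by 1.43 (SE 0.14, adjusted p = 0.000182), 10.06 and 10.18 against 8.48 and 8.91. In a fit on these 4 arrays alone its adjusted p was 0.0671. Nr0b1 was at 1.18 (adjusted p = 0.218) and Dppa5a at -1.60 (adjusted p = 0.106), and which of them was called hung on the day 2 array kept. Without F+CD24high D2 replicate 1, Dppa5a was lower at day 4 (-2.72, adjusted p = 0.000887). Without F+CD24high D2 replicate 2, Nr0b1 was higher at day 4 by 2.12 (adjusted p = 0.00964), and Dppa5a was called lower in F+CD24high D2 than in F+CD24low D2 (-2.26, adjusted p = 0.000927). F+CD24high D2 replicate 2 also read higher than replicate 1 in the means of 17 fibroblast markers (7.85 against 7.27) and of 9 visceral endoderm markers (7.72 against 6.96), among them Col1a1 at 10.40 against 8.14, and the part of these cell types in the gap was not tested.

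F+CD24high D4 and T+CD24neg D4 cells, the late endoderm and mesoderm groups, differed in 2 members of 9 (2.92% of the probe sets higher and 2.96% lower in endoderm), in opposite directions. Dppa5a was lower in F+CD24high D4, at 7.0 and 6.82 against 9.45 and 9.56 (-2.59, SE 0.53, adjusted p = 0.00397), and Tfcp2l1 was higher, at 10.06 and 10.18 against 8.41 and 8.27 (1.78, SE 0.14, adjusted p = 3.06e-06). The groups did not overlap for either gene, as for 30.4% of all probe sets that were lower and 27.9% that were higher on both endoderm arrays. Both calls were kept when any single array was left out. Nr0b1, at 8.13 and 8.04 against 6.51 and 6.92, did not pass (1.37, SE 0.51, adjusted p = 0.0861), although it did without either F+CD24high D2 array (adjusted p = 0.0142), either mESC array (adjusted p = 0.0497) or in a fit on these 4 arrays alone (adjusted p = 0.0063). The CD24 gate, the lineage and the medium all change in this comparison.

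**Figure D3:**
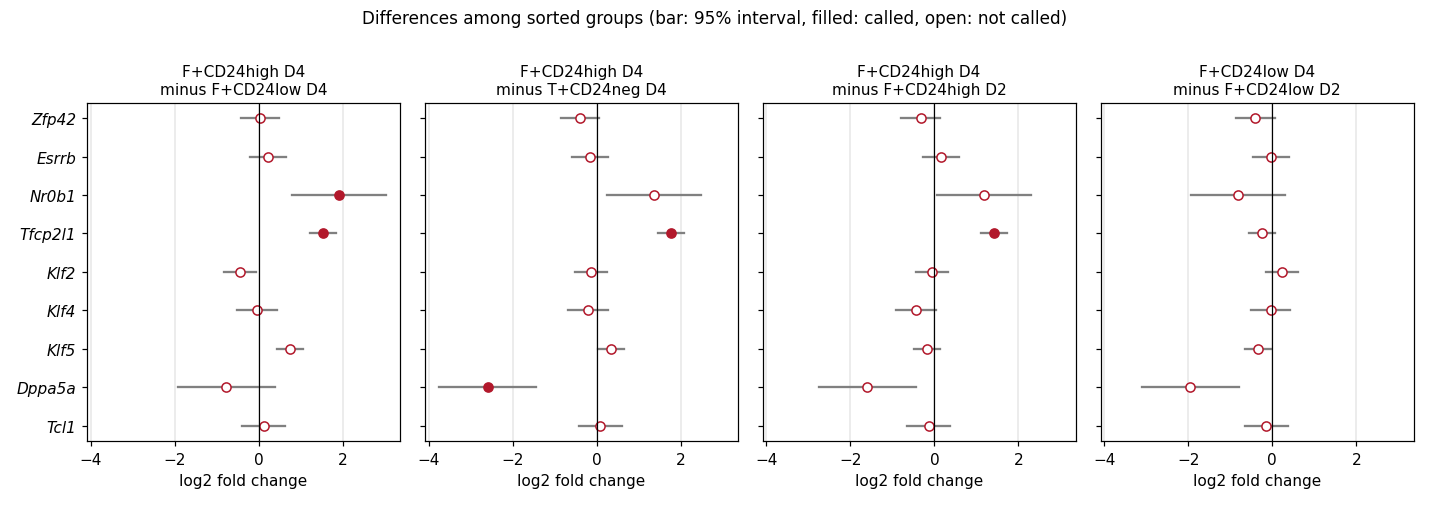
Log2 fold change (x axes) of the 9 genes (rows) in 4 comparisons among sorted groups; points are limma estimates, bars 95% intervals, filled points were called. The filled points are Nr0b1 (1.91) and Tfcp2l1 (1.54) in the first panel, Tfcp2l1 (1.78) and Dppa5a (-2.59) in the second and Tfcp2l1 (1.43) in the third.

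Between the endoderm and mesoderm progenitors, the cells with low CD24, no member was called. At day 4 none of the 9 was called between F+CD24low and T+CD24low cells (limma, 3.08% of the probe sets called in either direction), and 4 had an unadjusted p below 0.05, all lower in F+CD24low D4. These were Dppa5a (7.75 and 7.63 in F+CD24low D4 against 8.60 and 9.30 in T+CD24low D4, -1.26, adjusted p = 0.211), Esrrb (6.40 and 6.57 against 7.04 and 7.24, -0.66, adjusted p = 0.0652), Klf5 (10.48 and 10.47 against 11.15 and 10.87, -0.53, adjusted p = 0.0361) and Tfcp2l1 (8.49 and 8.67 against 9.01 and 8.98, -0.41, adjusted p = 0.113). The groups did not overlap for any of the 4, as for 22.2% of all probe sets in this direction. Without the share of all probe sets at an unadjusted p below 0.05, the count of 4 is not read as a result about the members. At day 2 none was called (0.903% of the probe sets called in either direction) and 0 had an unadjusted p below 0.05, and the differences lay between -0.27 (Esrrb) and 0.63 (Dppa5a). The change of this difference with the day was called for none of the 9 (limma, 1.38% of the probe sets called, 1 member with an unadjusted p below 0.05), and was -1.89 for Dppa5a (SE 0.75, adjusted p = 0.333). T+CD24neg D4 did not differ from T+CD24low D4 in any member by both thresholds (limma, 1.1% of the probe sets called), with 1 unadjusted p below 0.05, that of Tfcp2l1 (8.41 and 8.27 against 9.01 and 8.98, -0.65, adjusted p = 0.0266).

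Between the days, none of the 9 was called in F+CD24low cells (limma, 0.294% of the probe sets called, 2 members with an unadjusted p below 0.05) or in T+CD24low cells (1.79% called, 1 member with an unadjusted p below 0.05). Dppa5a in F+CD24low cells, at 7.75 and 7.63 at day 4 against 9.83 and 9.46 at day 2, did not overlap between the days, as for 20.2% of all probe sets in this direction, and had a log2 fold change of -1.96 (95% interval -3.11 to -0.80, SE 0.53, adjusted p = 0.207). Its standard error is pooled over all groups, with the gap of 2.25 in F+CD24high D2 among them. Dppa5a was called in this comparison without either F+CD24high D2 array (adjusted p = 0.00418), with array weights (adjusted p = 0.0341) and in a fit on the 4 arrays alone (adjusted p = 0.0475). Without either F+CD24high D2 array it was also called between F+CD24low D4 and T+CD24low D4 (adjusted p = 0.00711) and in the change of that difference with the day (adjusted p = 0.016). Zfp42 in T+CD24low cells was at 5.71 and 5.89 at day 4 against 6.33 and 6.47 at day 2 (-0.60, SE 0.21, adjusted p = 0.129).

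The members' group means followed each other over the 8 groups. Pearson r between 2 members ran from 0.56 (Dppa5a with Tfcp2l1) to 0.98 (Zfp42 with Tcl1) over the 36 pairs, which share the arrays and the high value of mESC. Against the mean centred profile of all 9, r was 0.99 for Zfp42 and Tcl1, 0.98 for Esrrb and lowest for Tfcp2l1 (0.84), Klf5 (0.90), Dppa5a (0.91) and Klf2 (0.91). Among 476 other genes whose group means had an SD of at least 1, those most like this profile were Gpnmb, a transmembrane glycoprotein of macrophages and other cells (r = 0.996), the predicted gene Gm6083 (0.994), Grem1, a secreted Bmp antagonist (0.994), Dppa4, a chromatin protein of pluripotent cells (0.993), and Anxa1, an annexin (0.993). Those most unlike it were Fgf8, a growth factor of the primitive streak (-0.908), Krt18, a keratin of simple epithelia (-0.847), and Mogat2, an acyltransferase (-0.748). Gpnmb averaged 6.52 to 6.76 in the sorted groups and 10.15 in mESC, and Fgf8 9.95 to 11.10 in the sorted groups and 7.70 in mESC. All these r describe 8 means, of which 1 stands apart, and carry no test. The group that stands apart, mESC, was kept on fibroblasts and not sorted. The part of fibroblast RNA in the genes most like the profile was not tested.

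Markers of embryonic fibroblasts, the feeders of the mESC cultures, moved with the members. Of the 20 on the list 17 were tested, and 14 were lower in F+CD24high D4 and F+CD24low D4 than in mESC, 13 in both day 2 groups of Foxa2+ cells, 15 in T+CD24low D2, and 10 in T+CD24low D4 and T+CD24neg D4, where 1 was higher in T+CD24neg D4. Postn (-5.03), Lox (-4.70), Dcn (-4.66) and Prrx1 (-4.36) fell furthest in F+CD24high D4. The mean over the 17 lay between 7.21 and 7.95 on the sorted arrays, against 10.22 and 9.82 on mESC replicates 1 and 2. No marker can be read as 0 on these arrays. Between the 2 mESC arrays the lists ran in opposite directions: all 9 members were higher on replicate 2 than on replicate 1, by 0.27 (Tfcp2l1) to 1.37 (Nr0b1), as were all 11 further naive genes tested, while 15 of the 17 fibroblast markers were lower. Over all probe sets 48.6% were higher on replicate 2. The part of fibroblast RNA in the members' fold changes was not tested.

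**Figure D4:**
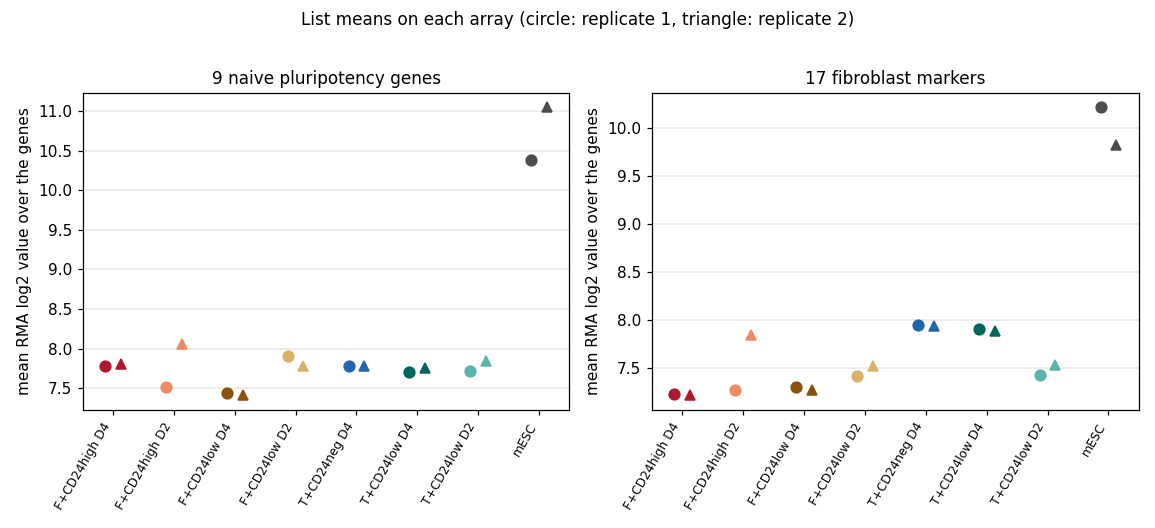
Mean RMA log2 value (y axes) of the 9 naive pluripotency genes (left) and of 17 fibroblast markers (right) on each array of the 8 groups (x axes); circles are replicate 1 and triangles replicate 2. The fibroblast mean is 10.22 and 9.82 on the mESC arrays and at most 7.95 on the sorted arrays, and within mESC the array with the higher member mean (11.04 against 10.38) has the lower fibroblast mean.

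Other genes of the naive state fell with the members but less uniformly. Of 12 further naive genes 11 were tested, of which 9 were lower in F+CD24high D4, 10 in F+CD24high D2, 9 in F+CD24low D4, 10 in F+CD24low D2, 7 in T+CD24neg D4, 7 in T+CD24low D4 and 8 in T+CD24low D2. Fbxo15 (-4.27), Jam2, an adhesion molecule (-4.05), Nr5a2, a nuclear receptor that can replace Oct4 in reprogramming (-3.62), and Fgf4, the growth factor that drives exit from the naive state (-3.15), fell furthest in F+CD24high D4. Of these Fbxo15, an F-box protein, was also lower in F+CD24high D4 than in F+CD24low D4 (-1.22). A single gene of the list was higher than in mESC in T+CD24neg D4 and another in T+CD24low D4, and they are named here after their values were seen. Tbx3, a T-box factor of naive cells and of mesoderm, was higher in T+CD24neg D4 by 1.80, and Prdm14, a repressor of naive cells and primordial germ cells, in T+CD24low D4 by 1.31 (8.51 and 9.15 against 7.31 and 7.73 in mESC).

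Primordial germ cells re-express naive genes, and their markers were therefore counted beside the members. In T+CD24low D4, 4 of 9 germ cell markers were higher than in mESC and 2 lower, with the largest changes in Ddx4 (-3.15), Kit (1.90), Dppa3 (-1.43) and Prdm1 (1.40). In the same cells Esrrb had its highest sorted mean (arrays 7.04 and 7.24) and Zfp42 its lowest (arrays 5.71 and 5.89), and the part of germ cell RNA in these levels was not tested. The counts of higher and lower markers were 2 and 4 in F+CD24high D4, 2 and 2 in F+CD24high D2, 0 and 3 in F+CD24low D4, 0 and 4 in F+CD24low D2, 0 and 2 in T+CD24neg D4 and 0 and 2 in T+CD24low D2. Of 9 visceral endoderm markers, 4 were higher in F+CD24high D4, 0 in F+CD24high D2, 2 in F+CD24low D4, 1 in F+CD24low D2 and T+CD24neg D4 each and 0 in both T+CD24low groups, where 1 was lower at day 2.

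Among the core factors, Sox2 fell with the members in all 7 groups, while Pou5f1 and Nanog were not called in those with low CD24. Pou5f1 (Oct4), which pluripotent cells of either state need, read 7.79 and 8.71 in F+CD24high D4 and 12.72 and 12.52 in F+CD24low D4, against 12.47 and 12.59 in mESC. It was lower than in mESC in F+CD24high D4 (-4.28), F+CD24high D2 (-1.98) and T+CD24neg D4 (-1.30), and was not called in the 4 groups with low CD24, where it lay between -0.50 and 0.22. Nanog was lower in F+CD24high D4 (-2.50) and T+CD24neg D4 (-1.17), lay at -0.96 in F+CD24high D2 and between -0.30 and 0.42 in the groups with low CD24, without a call. Sox2 was lower in all 7 groups, from -4.93 in F+CD24high D4 to -1.05 in F+CD24low D2. In F+CD24high D4 compared with F+CD24low D4, Pou5f1 (-4.37), Sox2 (-3.84) and Nanog (-2.73) were all lower, whereas Tfcp2l1 (1.54) and Nr0b1 (1.91) were higher.

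**Figure D5:**
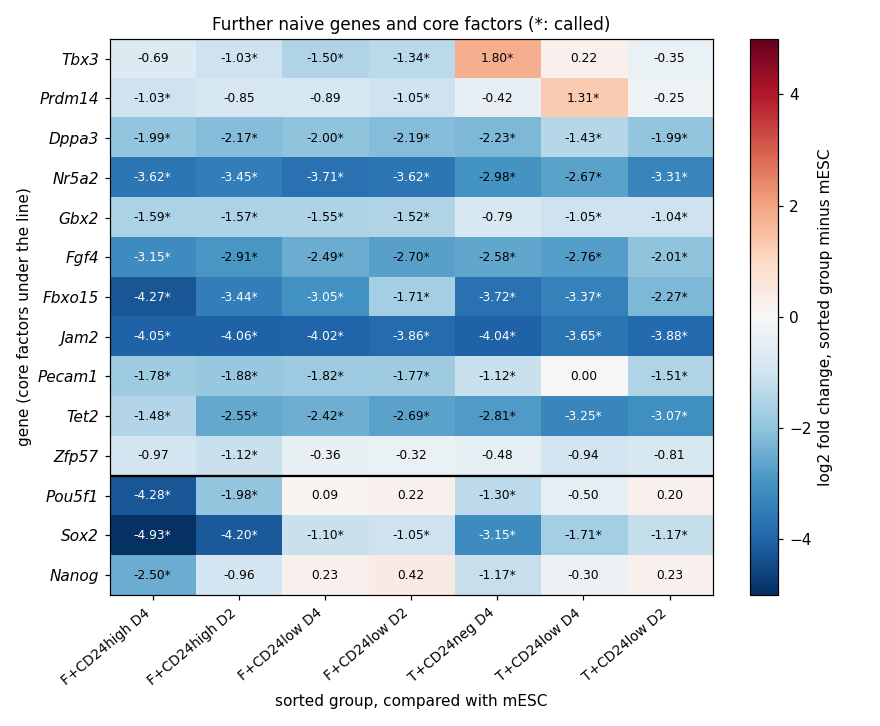
Log2 fold change compared with mESC (colour and number) of 11 further naive genes (above the line) and the 3 core factors (below it) in the 7 sorted groups (columns); asterisks mark calls. Jam2 and Nr5a2 are lower in all 7 columns, Tbx3 is higher in T+CD24neg D4 (1.80) and Prdm14 in T+CD24low D4 (1.31), and Pou5f1 is near 0 in the columns of F+CD24low cells.

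The formative and primed genes, which mark the epiblast after the naive state, did not move as 1 group. Of 11 tested, 2 were higher and 6 lower in F+CD24high D4, 2 and 5 in F+CD24high D2, 1 and 0 in F+CD24low D4, F+CD24low D2 and T+CD24low D2 each, 1 and 7 in T+CD24neg D4, and 0 and 6 in T+CD24low D4. In F+CD24high D4 the largest changes were Lef1 (-2.55), a Wnt effector, Fgf5 (2.18), a marker of the postimplantation epiblast, Dnmt3a (-2.06), a de novo DNA methyltransferase, and Otx2 (1.99), a homeobox factor of epiblast and anterior endoderm. In F+CD24low D2 the 1 gene higher was Fgf5 (1.96).

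The genes of LIF signalling, the input of the naive network, fell in part. Of 13 tested, 6 were lower in F+CD24high D4, 5 in F+CD24high D2, 7 in F+CD24low D4, 6 in F+CD24low D2, 2 in T+CD24neg D4, 2 in T+CD24low D4 and 6 in T+CD24low D2, and none was higher. In F+CD24low D4 they were led by Osmr, the oncostatin M receptor (-3.20), Bcl3 (-2.37) and the kinase Pim1 (-2.24), both Stat3 targets, and Lifr, the LIF receptor (-1.73). Between the mESC arrays, 8 of the 13 were higher on replicate 2 and 5 were lower, Osmr among the latter. The part of fibroblast RNA in these changes was not tested. Between F+CD24high D4 and F+CD24low D4, where Tfcp2l1 differed, limma called 0 of the 13 by both thresholds, and 3 had an unadjusted p below 0.05. Of these Bcl3 (0.88, adjusted p = 0.00596) and Stat3 (0.88, adjusted p = 2.32e-05), named here after their values were seen, fell short of the fold threshold alone.

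The 14 Klf genes outside the members were mostly not called. Of these, 0 were higher in any group, and 2 were lower in F+CD24high D4, F+CD24high D2 and F+CD24low D4 each, 1 in T+CD24neg D4 and T+CD24low D4 each and 0 in F+CD24low D2 and T+CD24low D2. Klf8 (-1.15) and Klf3 (-1.02) were those of F+CD24high D4, and Klf9 (-1.98) that of T+CD24low D4. Of 12 tested relatives of the other members, 2 were lower in each of the 7 groups and none was higher. These were Dppa2, between -5.90 and -4.41, and Dppa4, between -3.26 and -3.08, partners in chromatin of pluripotent cells that share only a name with Dppa5a. The estrogen-related receptor Esrra (-0.05 to 0.33), Nr0b2 (0.02 to 0.22) and Tfcp2 (0.04 to 0.44), each the near relative of a member, were not called and are named here after their values were seen.

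Differentiation was visible in the markers of both lineages. All 7 definitive endoderm markers were higher than in mESC in both F+CD24high groups, 6 in F+CD24low D4, 2 in F+CD24low D2, 3 in T+CD24neg D4 and T+CD24low D4 each and 2 in T+CD24low D2. Of 6 mesoderm markers, all were higher in T+CD24neg D4, 4 in T+CD24low D4 and T+CD24low D2 each and none in the Foxa2+ groups, where 1 was lower in F+CD24low D4.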

How the data were processed

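RNA of 16 samples was measured on 1 array each (Affymetrix, type Mouse Gene ST 1.0), 2 for each of 8 groups taken from the labels. The deposited values are log2 values that the authors made from the scanned arrays by RMA (background correction, quantile normalization and summary per probe set) in oligo 1.48.0, which fixes all arrays to 1 distribution and compresses differences of dim genes. Of 35556 probe sets the 32000 of highest mean were tested, of which 20427 have 1 symbol, 1400 several and 10173 none, and a gene was read from its single-symbol probe set of highest mean. limma 3.58.1 in R 4.3.3 was fitted to the 8 group means (8 residual degrees of freedom, 3.34 prior), with Benjamini-Hochberg adjustment over all 32000. Standard errors are pooled over the groups, and the number of arrays limits the precision. The labels do not say whether replicates came from separate differentiations, so p-values measure the spread between these samples, which may be technical. The script was tested on simulated data.

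The members and gene lists were chosen with earlier results of these data known. The text names all 9 members, Pou5f1, Sox2 and Nanog, up to 4 genes of each other list with the largest called change, the 5 genes most like the members and the 3 most unlike them (Pearson r over 8 group means, SD of at least 1), and Foxa2 and Cd24a. The T gene is not analysed here. Promoters came from RefSeq (GRCm38.p6). Alternatives were other probe set filters, thresholds, variance models, array weights, a replicate block, fits on the arrays compared, both days averaged, and leaving out each array.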

Additional observations from a re-analysis of the deposited data

Results flagged for a closer look

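Of the members' results, 1 differed between conditions by a test of the difference itself. The difference of Tfcp2l1 between F+CD24high and F+CD24low cells was larger at day 4 than at day 2 by 1.67 on the log2 scale (SE 0.20, limma interaction, adjusted p = 0.0026). It was 1.54 at day 4 and -0.13 at day 2.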

How the results depend on the processing

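With 2 arrays a group, 1 array can move a group mean far, and RMA compresses the changes of dim genes. Over 25 other settings 28 values became called and 40 lost their call, and no called value changed sign. With 16000 probe sets, among which were 5 of the 9 members, the counts compared with mESC were 5 in F+CD24high D4, F+CD24low D2, T+CD24neg D4, T+CD24low D4 and T+CD24low D2 and 4 in F+CD24high D2 and F+CD24low D4, and 1 in F+CD24high D4 compared with F+CD24low D4. An adjusted p alone called 1 member in each of F+CD24high D2 compared with F+CD24low D2, T+CD24neg D4 with T+CD24low D4 and F+CD24low D4 with T+CD24low D4. A test against a 2-fold change called, compared with mESC, 5 in F+CD24high D4, 7 in F+CD24low D4 and 6 in each of the other 5 groups. Klf2 and Klf4 were not called in any of the 7, Klf5 in F+CD24low D4 alone, and Tfcp2l1 not in F+CD24high D4. It called 1 in F+CD24high D4 compared with T+CD24neg D4, and 0 in F+CD24high D4 compared with F+CD24low D4 and with F+CD24high D2 and in the change of the CD24 difference with the day. F+CD24low D4 compared with F+CD24low D2 gave 1 with array weights and 1 on the arrays compared, where F+CD24high D4 compared with F+CD24high D2 gave 0. Without 1 array at a time, counts compared with mESC ran from 7 to 9 in both F+CD24high groups and from 8 to 9 in the other 5. They ran from 0 to 1 in F+CD24high D2 compared with F+CD24low D2, F+CD24low D4 with T+CD24low D4, F+CD24low D4 with F+CD24low D2 and the change of the lineage difference with the day. They ran from 1 to 2 in F+CD24high D4 compared with F+CD24low D4, F+CD24high D4 with F+CD24high D2 and the change of the CD24 difference, and from 2 to 3 in F+CD24high D4 compared with T+CD24neg D4. Probe sets of a gene were not averaged, since each member has 1. The shares of all probe sets called in these other settings are not given here, so the counts show only how calls move. The cause of these moves was not tested.

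Deviations of same-numbered arrays correlated at -0.20 to 0.25 over 28 pairs of groups, 8 of them over 0.1. These correlations cannot show whether same-numbered samples shared a culture. With the replicate number as a block, the counts were the same, such as 9 of 9 in F+CD24high D4 and 8 of 9 in F+CD24low D4 compared with mESC and 2 in F+CD24high D4 compared with F+CD24low D4.

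Without 1 array at a time, 26 differences among sorted groups, none of them called and the largest at 0.36, changed sign. In F+CD24high D2 compared with F+CD24low D2, Esrrb ran from -0.088 to 0.15, Klf2 from -0.41 to 0.11, Nr0b1 from -1.03 to 0.84, Tcl1 from -0.093 to 0.30, Tfcp2l1 from -0.34 to 0.086 and Zfp42 from -0.13 to 0.051. In F+CD24high D4 compared with F+CD24high D2, Klf2 ran from -0.32 to 0.20 and Tcl1 from -0.33 to 0.068. In F+CD24high D4 compared with F+CD24low D4, Klf4 ran from -0.10 to 0.0043 and Zfp42 from -0.14 to 0.20. In F+CD24high D4 compared with T+CD24neg D4, Tcl1 ran from -0.14 to 0.31. In the change of the CD24 difference with the day, Dppa5a ran from -0.765 to 1.485, Tcl1 from -0.18 to 0.22 and Zfp42 from -0.10 to 0.24. In F+CD24low D2 compared with T+CD24low D2, Klf4 ran from -0.15 to 0.062. In F+CD24low D4 compared with F+CD24low D2, Esrrb ran from -0.11 to 0.050 and Klf4 from -0.091 to 0.0099. In F+CD24low D4 compared with T+CD24low D4, Tcl1 ran from -0.24 to 0.25 and Zfp42 from -0.15 to 0.19. In the change of the lineage difference with the day, Tcl1 ran from -0.48 to 0.0052. In T+CD24low D4 compared with T+CD24low D2, Dppa5a ran from -0.42 to 0.29, Klf5 from -0.18 to 0.098, Nr0b1 from -0.12 to 0.23 and Tcl1 from -0.15 to 0.33. In T+CD24neg D4 compared with T+CD24low D4, Klf5 ran from -0.27 to 0.0058 and Tcl1 from -0.20 to 0.28.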
